A study of Mus musculus with 10 samples.

Results

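The accessible regions described here lie around the genes of the 2 vomeronasal receptor families of the mouse, V1R (gene names starting with Vmn1r) and V2R (Vmn2r). The peak lists of 10 sperm ATAC-seq libraries were merged wherever their intervals overlapped by at least 1 bp, single-library regions included, and a merged region was taken when it overlapped a receptor gene of the GENCODE M21 annotation extended by 10 kb on each side. This gave 228 regions of the 113093 on the 19 autosomes, 113 at V1R genes, 115 at V2R genes and 0 at both. The windows spanned 6.66 Mb around 326 V1R genes and 9.01 Mb around 235 V2R genes, pseudogenes included. Together they made up 0.636% of the autosomes and held 0.202% of the regions. ATAC-seq inserts adapters into accessible DNA with the Tn5 transposase, and a peak is an interval in which one library has more insertions than its local background.

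Sperm came from the cauda epididymis of wild type C57BL/6JRccHsd males, with 1 library per mouse. The mice were acquired at 3 weeks of age, and the diet lasted 6 months. The F0 CD group comprised 6 males on chow with 14% protein, and the F0 WD group 4 males on the Western diet #D12079B, with 40% of its energy from fat and 43% from carbohydrate. The group sizes follow the sample titles, and the protocol text gives them the other way round. The lists held 13366 to 29532 peaks per library, and the weakest called summit held 9 to 13 reads. A receptor gene without a peak may therefore hold reads below this floor. As a check of the cell type, peaks within 1 kb of an annotated transcript start were sought at marker genes. None of 7 sperm markers, 1 of 6 epididymal epithelium markers, 1 of 5 immune markers and 3 of 4 early germ cell markers had a peak in any library, with at most 2 libraries at any of these genes. Peaks at these starts therefore gave no check of the sperm label, since the defining sperm genes had none.

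Vomeronasal receptors detect pheromones and other social odours in sensory neurons of the vomeronasal organ. V1R genes keep their coding sequence in a single exon, while V2R genes have several exons that encode a long extracellular domain. Each neuron expresses very few of these genes, V1R with the G protein subunit Gαi2 and V2R with Gαo, and both signal through the channel Trpc2. The genes stand in large clusters of near copies and pseudogenes, rich in repeats, and no role in sperm is assigned to them here. In sperm nuclei most histones are replaced by protamines.

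The sequences below are the bases around the strongest summit of the regions on which the account turns, read from RefSeq's GRCm38.p6 assembly on the + strand. They are shown since several of the most recurrent regions near receptor genes lay on tandem repeats, of different kinds. In the first group, capitals mark CA, AC, TG or GT repeated 5 times or more:
Vmn1r218, chr13:23134376-23134476: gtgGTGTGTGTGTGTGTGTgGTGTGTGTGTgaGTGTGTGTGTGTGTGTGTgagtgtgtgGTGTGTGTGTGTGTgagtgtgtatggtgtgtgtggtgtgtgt
Vmn2r56, chr7:12744608-12744708: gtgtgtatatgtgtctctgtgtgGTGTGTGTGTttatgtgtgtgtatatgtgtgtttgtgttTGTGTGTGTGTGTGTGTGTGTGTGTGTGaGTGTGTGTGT
In the next, capitals mark whole copies of the word that occurs most often in that region:
Vmn1r-ps60, chr7:12010693-12010793: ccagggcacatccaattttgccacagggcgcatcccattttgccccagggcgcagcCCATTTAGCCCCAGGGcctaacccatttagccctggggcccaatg
In the last group, capitals mark whole copies of the word GTGGTCTATCTGAGAG, the most frequent one in the region downstream of Vmn2r125:
Vmn2r125 upstream, chr4:156343336-156343436: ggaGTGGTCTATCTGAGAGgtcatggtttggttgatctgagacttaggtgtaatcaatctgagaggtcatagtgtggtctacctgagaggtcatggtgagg
Vmn2r125 downstream, chr4:156357893-156357993: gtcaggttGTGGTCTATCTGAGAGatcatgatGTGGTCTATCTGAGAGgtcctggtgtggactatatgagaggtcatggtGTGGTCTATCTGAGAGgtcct

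Receptor neighbourhoods held few peaks in every library. The V1R windows held 17.0 regions per Mb and the V2R windows 12.8, against 29.3 in equally extended windows around the 1399 olfactory receptor genes, the largest other family of chemoreceptors, and 46.1 in the rest of the autosomes. In the 6 F0 CD libraries the V1R windows held 14, 27, 21, 16, 10 and 16 peaks, and in the 4 F0 WD libraries 17, 16, 14 and 15, or at most 4.06 per Mb. The V2R windows held 15, 29, 25, 15, 13 and 20 peaks in F0 CD and 30, 17, 17 and 17 in F0 WD, or at most 3.33 per Mb. The rest of the autosomes held at least 5.39 peaks per Mb in each library, and no library came near its own genome-wide level at either family. Since the lists differ in length, each density was divided by the density of the rest of the autosomes in the same library.

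The ratio to the rest of the autosomes was 0.341 for V1R, with a mean log2 ratio of -1.55 ± 0.243 (SD, n = 10) and a range from 0.261 to 0.423. For V2R it was 0.298, with a mean log2 ratio of -1.75 ± 0.269 (SD, n = 10) and a range from 0.247 to 0.422. Both were below 1 in 10 of 10 libraries (exact two-sided sign-flip permutation test over libraries, p = 0.00195, the smallest that 10 libraries allow, adjusted p = 0.00244 over 5 ratios). The test treats the mouse as the replicate, and all mice share one genome annotation. Against olfactory receptor windows the ratio was 0.653 for V1R and 0.571 for V2R, again below 1 in 10 of 10 libraries (exact permutation test, p = 0.00195, adjusted p = 0.00244). With windows extended by 50 kb the V1R difference from olfactory receptors was not detected (mean log2 ratio -0.08, exact permutation p = 0.434).

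**Figure D1:**
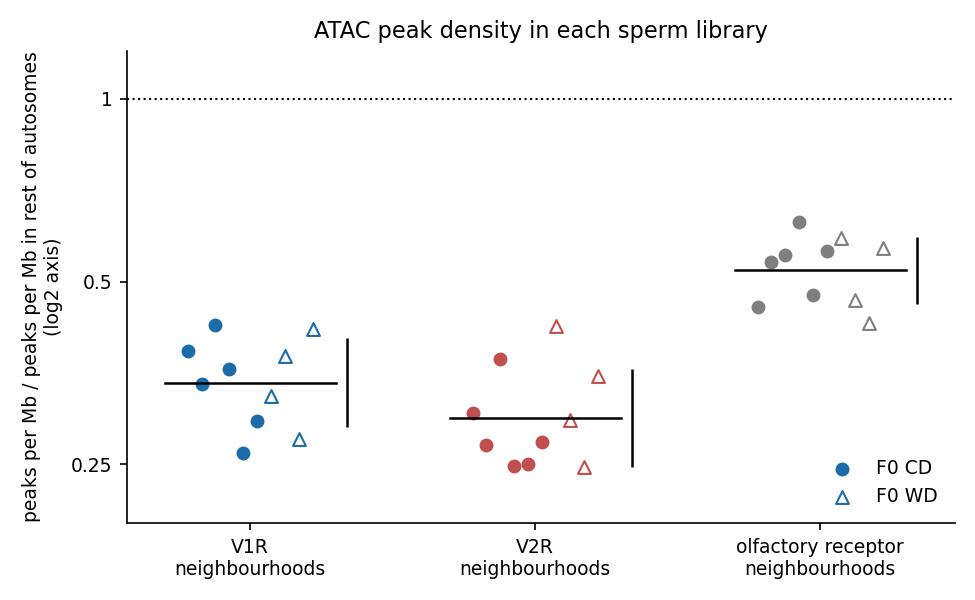
Ratio of peaks per Mb in each set of windows to peaks per Mb in the rest of the autosomes of the same library (log2 axis), with 1 point per library, filled circles for F0 CD and open triangles for F0 WD. Horizontal lines are geometric means, vertical bars 1 SD of the log2 ratios on either side, and the dotted line is equal density. All 10 libraries lie below 0.43 for both vomeronasal families, and points of both diets are mixed.

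Over all windows V1R neighbourhoods were slightly denser than V2R neighbourhoods. V1R density was 1.14 times V2R density and higher in 9 of 10 libraries (mean log2 ratio 0.19 ± 0.245, exact permutation p = 0.0391, adjusted p = 0.0391), and the exception was F0 WD 1. Leaving out any library but F0 WD 1 took the p above the threshold, to between 0.0508 and 0.0781. The call was also lost with lists of equal length (ratio 1.02, exact permutation p = 0.783), with peaks of q under 0.01 (p = 0.172, exact permutation test) and per unique base (p = 0.0508, exact permutation test). The V2R value rested on chromosome 4, which carried 5 to 13 of the 13 to 30 V2R peaks of each library. Leaving chromosome 4 out, a setting chosen after its values were seen, gave a V2R ratio to the rest of 0.155 and a V1R density 2.13 times that of V2R.

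Part of each window is duplicated sequence, and this was measured as the share of bases whose 50-mer, about the length of a read, occurs once in the assembly. It was 63.5% at V1R, 63.0% at V2R, 84.2% at olfactory receptors and 87.1% in the rest of the autosomes. Per Mb of such unique bases, V1R windows held 26.7 regions, V2R windows 20.3, olfactory receptor windows 34.8 and the rest 52.9. The order of the sets was kept, with ratios closer to 1. Within libraries, the ratios to the rest per unique base were 0.468 for V1R and 0.412 for V2R. Those to olfactory receptors were 0.865 for V1R (exact permutation p = 0.0352) and 0.763 for V2R (exact permutation p = 0.00195). The other base properties also differed. Repeat-masked bases made up 52.6% of V1R windows, 50.4% of V2R windows and 33.4% of the rest, and GC content was 39.3%, 37.8% and 42.0%. The part of repeats and base composition in the density was not tested.

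Within the families the density went with the clusters. Receptor genes were grouped where they lay within 1 Mb of each other, and groups of at least 10 genes were called clusters, which gave 7 for V1R with 299 genes and 9 for V2R with 195 genes. Clusters held 15.2 regions per Mb for V1R and 9.62 for V2R. The 27 V1R genes outside clusters held 33.9 regions per Mb and the 40 V2R genes outside clusters 29.7. Relative to the rest of the autosomes, the ratio in clusters was 0.278 for V1R (range 0.201 to 0.346) and 0.131 for V2R (range 0.0733 to 0.284), below 1 in 10 of 10 libraries in both families (exact permutation test, adjusted p = 0.00391 over 8 ratios, with a library without peaks set to 0.5 peaks). Outside clusters the ratio was 0.859 for V1R (range 0.270 to 1.77, exact permutation p = 0.420) and 1.10 for V2R (range 0.614 to 1.83, exact permutation p = 0.385), not distinguishable from the rest at this spread. Genes outside clusters were denser than clusters of the same family by 3.09 times for V1R (higher in 9 of 10 libraries, exact permutation adjusted p = 0.00625) and 8.41 times for V2R (10 of 10 libraries, adjusted p = 0.00391, exact permutation test). Without chromosome 4 the V2R genes outside clusters held 20 regions, with a ratio of 0.255, below 1 in 10 of 10 libraries. The value near the rest of the autosomes therefore rested on that chromosome. So did much of the difference of 8.41 times, since 0.255 stands against 0.131 in clusters. The comparison by cluster was chosen once the values were known.

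All V1R clusters held fewer regions per Mb than the rest of the autosomes. The cluster of 70 genes on chromosome 13 held the most, 28 regions at 26.9 per Mb. The clusters of 44 and 23 genes on chromosome 6 held 19.8 and 21.4 per Mb, and that of 24 genes on chromosome 17 held 14.5. On chromosome 7 the clusters of 14, 46 and 78 genes held 5.62, 14.2 and 6.13 per Mb. The last of these has 24.3% unique 50-mers, and its density per unique Mb was 25.2, within the 9.75 to 36.1 of the other V1R clusters. Among V2R clusters, the 11 genes on chromosome 13 held 0 regions and the 39 genes near the start of chromosome 7 held 2 regions at 1.36 per Mb, with 18.1% and 17.6% unique 50-mers. The other V2R clusters ranged from 4.13 regions per Mb at 12 genes on chromosome 5, with 75.7% unique 50-mers, to 23.8 at 14 genes on chromosome 17, with 58.8%.

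**Figure D2:**
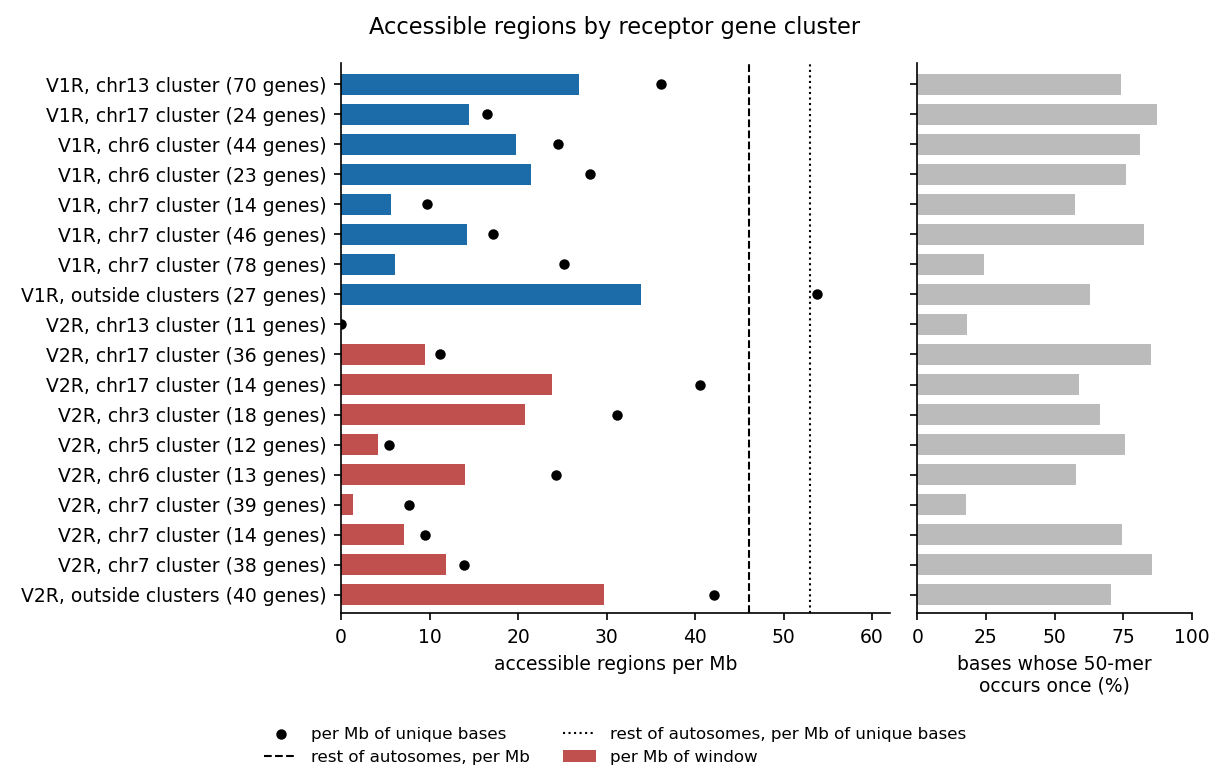
Accessible regions per Mb in each receptor gene cluster and in the genes outside clusters (left, bars, V1R blue and V2R red), per Mb of bases whose 50-mer occurs once (dots), and the share of such bases (right, grey bars). The dashed line marks the rest of the autosomes at 46.1 regions per Mb and the dotted line the same per unique Mb, 52.9. Every cluster lies below the respective line, and the V1R genes outside clusters reach it only per unique Mb.

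The density was also low in the nearest shells around the receptor genes, with no steady trend within 10 kb. Peak midpoints were counted in the gene bodies and in shells around the nearest gene of the family. In gene bodies the ratio to the rest of the autosomes had a median over libraries of 0.296 for V1R (range 0.219 to 0.414) and 0.174 for V2R (range 0.0373 to 0.259). From 0 to 2 kb the medians were 0.332 and 0.627, from 2 to 5 kb they were 0.431 and 0.495, and from 5 to 9 kb they were 0.246 and 0.417. From 11 to 20 kb the medians were 0.522 and 0.481, from 20 to 50 kb they were 0.895 and 0.661, and from 50 to 100 kb they were 0.775 and 1.06. At the edge of the windows, the outermost kb, 9 to 10 kb from a gene, held 10 midpoints at V1R and 6 at V2R, or 27.8 and 16.5 per Mb. The next kb outside held 6 and 3, or 17.9 and 8.60 per Mb.

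**Figure D3:**
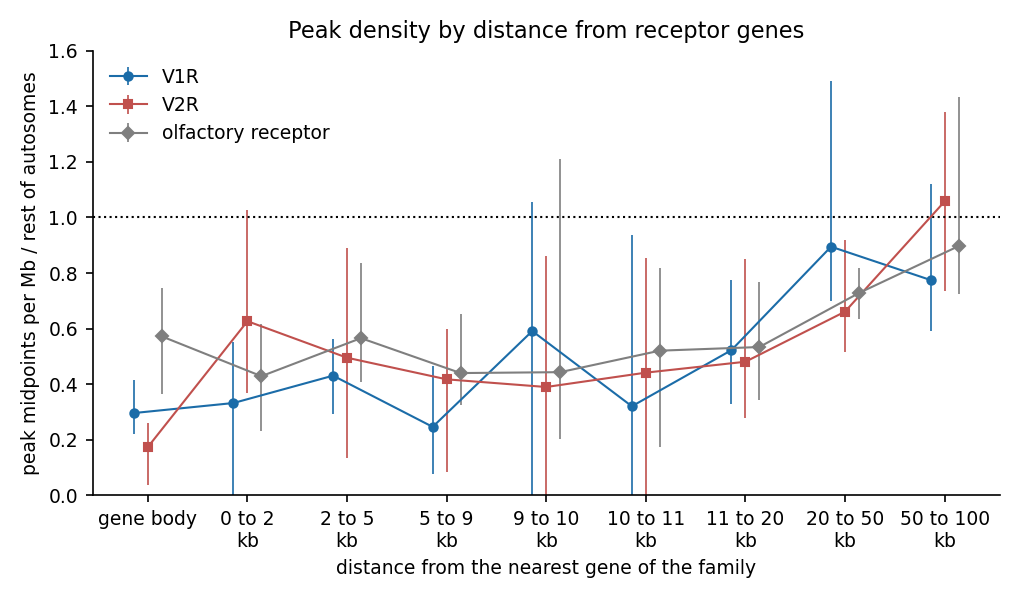
Peak midpoints per Mb, as a ratio to the rest of the autosomes of the same library, in gene bodies and in shells at increasing distance from the nearest V1R, V2R or olfactory receptor gene. Points are medians and bars the range over 10 libraries, and the dotted line is equal density. Ranges lie below 1 in the gene bodies of all 3 families, and from 50 to 100 kb they all include 1.

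Most regions near receptor genes were seen in a single mouse, as elsewhere. Of the 113 V1R regions 92 were called in 1 library, 21 (18.6%) in at least 2, 9 (7.96%) in at least 3 and 3 (2.65%) in at least 5. Of the 115 V2R regions 92 were called in 1 library, 23 (20%) in at least 2, 15 (13.0%) in at least 3 and 6 (5.22%) in at least 5. In the rest of the autosomes these shares were 21.7% for at least 2 libraries, 11.7% for at least 3 and 5.71% for at least 5. Around olfactory receptors they were 15.3%, 6.69% and 1.95%. Each vomeronasal family had 1 region with a peak in all 10 libraries. Recurrent regions, those in at least 2 libraries, came to 3.15 per Mb at V1R and 2.55 at V2R, against 10.0 in the rest. The shares are given as a description, with no test. Without chromosome 4 the V2R share in at least 2 libraries was 10.8%, with 10 of 93 regions.

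**Figure D4:**
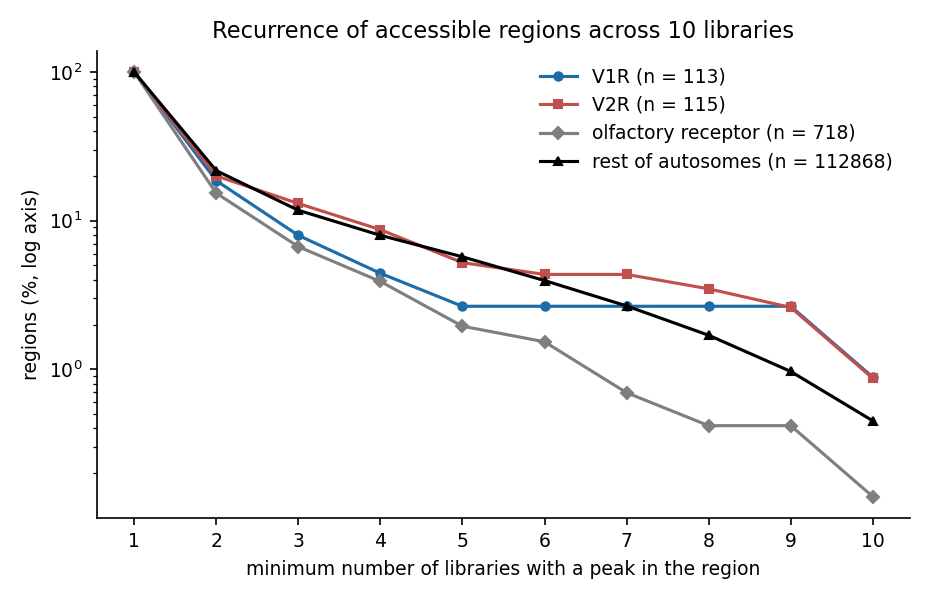
Percentage of accessible regions with a peak in at least the given number of libraries (log axis), for V1R, V2R and olfactory receptor neighbourhoods and the rest of the autosomes. All sets fall steeply after 1 library. The V1R curve is flat from 5 to 9 libraries, on 3 of 113 regions, while the V2R curve still falls there, also on few regions.

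The peaks themselves were of ordinary strength. Over all 166 V1R peaks the summit held a median of 15 reads (range 9 to 109), and over 198 V2R peaks 17 reads (range 9 to 44). The median fold enrichment over the local background was 3.82 at V1R and 3.76 at V2R, against 3.87 in the rest of the autosomes. Regions had a median width of 241 bp at V1R, 233 bp at V2R and 232 bp in the rest.

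Most receptor genes had no region nearby. Of 326 V1R genes 218 (66.9%) and of 235 V2R genes 160 (68.1%) had no region in their own window, against 709 of 1399 olfactory receptor genes (50.7%). A region within 1 kb of the 5′ end of the gene was found at 11 V1R genes (3.37%), each in a single library, and at 5 V2R genes (2.13%). The share was 4.57% of olfactory receptor genes and 10.8% of all 51229 autosomal genes. Of the vomeronasal receptor genes only Vmn2r125 had one there in at least 2 libraries. So did 6 of the 1399 olfactory receptor genes and 2.06% of all autosomal genes. Of the V1R regions 14 overlapped an exon of a receptor gene, 12 lay in an intron, 46 in an upstream flank and 41 in a downstream flank. Of the V2R regions 14 overlapped an exon, 41 lay in an intron, 32 upstream and 28 downstream. V2R genes are longer, with a median of 18787 bp against 1230 bp for V1R, and midpoints per Mb were 11.0 in V2R gene bodies and 14.8 in their flanks. Windows of protein-coding genes held 16.3 midpoints per Mb at V1R and 11.7 at V2R, and the remaining windows, mostly of pseudogenes, 18.7 and 14.8. Without chromosome 4 the V2R order turned, with 11.1 at coding genes and 9.29 at the others. By gene, 34.6% of coding V1R genes and 30.5% of the others had a region, and 36.4% and 27.2% for V2R.

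No V1R gene had more than 3 regions in its own window, and several genes shared that count. The genes named among them are Vmn1r2, Vmn1r-ps69, Vmn1r198, Vmn1r18 and Vmn1r19, while Vmn1r24 and Vmn1r42 also had 3. Among V2R genes, Vmn2r-ps18, Vmn2r-ps19 and Vmn2r7 had 6 each, and Vmn2r125 and Vmn2r-ps111 had 5 each. Vmn2r7, whose gene spans 159722 bp on chromosome 3, had no region in more than 1 library, whereas Vmn2r-ps18 had 4 in at least 2 libraries and Vmn2r125 had 4.

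The most recurrent and strongest V1R region lay 4029 bp downstream of the pseudogene Vmn1r-ps60 (chr7:12010339-12010919), in no other annotated gene. Its summit held 98, 52, 109, 67, 83 and 64 reads in F0 CD 1 to 6 and 59, 45, 68 and 79 in F0 WD 1 to 4. Every library called it, the diets overlapped, and its fold enrichment of 9.09 to 13.0 placed it at a median rank of 0.468% from the top of the lists. The region has 59.6% GC and is a tandem repeat, since a shift of 22 bases matched 76.6% of its bases to themselves. The word of 16 letters that occurs most often in it, the one in capitals in its sequence above, was found 8 times there, counting both strands.

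The same word occurred in several V1R neighbourhoods on different chromosomes. It occurred 532 times on the autosomes, with 260 copies in receptor windows. Of the 532 copies 530 lay in 7 arrays, taken as at least 3 copies less than 1 kb apart. Of the 7 arrays 6 lay within 10 kb of a V1R gene, on chromosomes 4, 6, 7 and 18, and 0 copies lay in V2R windows. Each of the 7 arrays overlapped at least 1 accessible region, and 9 regions (0.00796% of the autosomal regions) held the word, 7 of them V1R regions. The array near Vmn1r-ps60 held 71 copies and the array near Vmn1r238 held 64. The array at Vmn1r2 on chromosome 4 held 18 copies with a region in 3 libraries, and the array beside Vmn1r3 held 82 copies with a region in 2 libraries. The pair near Vmn1r-ps7 on chromosome 6 held 21 and 30 copies, each with a region in 1 library. The array away from receptor genes, on chromosome 18, held 244 copies and a region in 3 libraries. The arrays on chromosomes 4 and 6 and the one near Vmn1r238 started at bases 3112851 to 3174809, near the start of their chromosomes. Whether the word goes with receptor genes or with these chromosome ends was not tested. The word was taken from a member region after its sequence was seen, so these counts describe where it lies and are no test.

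The Vmn1r238 region (chr18:3117947-3119000) lay 3492 bp from this protein-coding V1R gene and 117946 bp after the first sequenced base of chromosome 18. It held 27, 15, 21, 29 and 17 reads in F0 CD 1, 2, 3, 5 and 6 and 14, 11, 14 and 34 in the 4 F0 WD libraries, and F0 CD 4 had no peak. It repeats with the same period of 22 bases, at 72.2% identity, and holds 5 whole copies of the word.

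The Vmn1r218 region (chr13:23134265-23134772) was the only named V1R region inside a gene. It lay in an intron, 1110 bp from the start of Vmn1r218. Its summit held 24, 39, 24, 32, 14 and 34 reads in F0 CD and 22, 13 and 15 reads in F0 WD 1, 3 and 4, while F0 WD 2 had no peak. F0 CD values reached higher, but the groups overlapped. Its longest CA or TG run had 25 units and lies outside the stretch printed above, in which shorter runs follow each other. The other named V1R regions were each found in 4 libraries, with at most 20 reads. They lay 8987 bp downstream of Vmn1r1 (chr1:182145360-182145717) and 5626 bp upstream of Vmn1r-ps59 (chr7:11988798-11989257), with CA or TG runs of 11 and 21 units.

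CA or TG runs of at least 10 units were found in 16.8% of V1R regions and 6.96% of V2R regions, against 24.9% in the rest of the autosomes. Among regions in at least 2 libraries the shares were 47.6% at V1R, 17.4% at V2R and 47.6% in the rest. Tandem repeats were scored as at least 70% of bases identical at the best shift of at least 10 bases. Long CA or TG runs can also reach this score, so the classes may overlap. Tandem repeats by this score made up 6.19% of V1R regions, 5.22% of V2R regions and 3.64% of the rest. Among recurrent regions they were 5 of 21 at V1R (23.8%), 4 of 23 at V2R (17.4%) and 10.1% in the rest.

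The recurrent V2R regions were gathered on chromosome 4. Its 8 V2R genes cover 0.167 Mb and held 22 regions, or 132 per Mb, while the rest of chromosome 4 held 45.9 per Mb. Of the 22 regions 13 (59.1%) were found in at least 2 libraries, and they included 5 of the 6 V2R regions found in at least 5 libraries. The V2R windows of the other chromosomes ranged from 0 to 56.1 regions per Mb, with the highest on chromosome 14. The 4 V1R genes on the same chromosome, at its other end, held 3 regions at 37.6 per Mb.

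The strongest recurrence on chromosome 4 surrounded Vmn2r125, annotated as an unprocessed pseudogene. The region 290 bp upstream of it (chr4:156342782-156343910) held 18, 19, 33, 19, 20 and 37 reads in F0 CD and 28, 15, 24 and 19 in F0 WD. It was called in all 10 libraries and was the only V2R region within 1 kb of a receptor start in at least 2 libraries. Its fold enrichment was 2.65 to 5.14, at a median rank of 27.9% from the top of the lists. The next region upstream (chr4:156342008-156342621) was found in 7 libraries with 19 to 29 reads. The region downstream (chr4:156356750-156358124) was found in 9 libraries with 12 to 27 reads, missing in F0 CD 5, and it reaches the last sequenced base of chromosome 4. All 3 regions repeat with a period of 24 bases, at 73.8%, 75.1% and 75.1% identity, and the sequences above show this for the nearest upstream and the downstream region. The word GTGGTCTATCTGAGAG occurred 79 times on the autosomes, 78 of them in V2R windows of chromosome 4, in 2 arrays of 48 and 30 copies on either side of Vmn2r125. The word was present in 5 autosomal regions (0.00442%), all 5 of them V2R regions, with 2 to 29 copies each. It too was taken from a member region after its sequence was seen, so these counts describe where it lies and are no test.

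The other named V2R regions of chromosome 4 were not tandem repeats by this measure, with 33.3% and 33.1% identity at the best shift. The region 3445 bp upstream of Vmn2r-ps18 (chr4:147122232-147122685) held 28, 16, 24, 27 and 30 reads in F0 CD 1, 2, 3, 4 and 6 and 20, 20, 25 and 29 in F0 WD. The region 7018 bp upstream of Vmn2r-ps19 (chr4:147436925-147437362) was found in 8 libraries with 18 to 44 reads. Both lie within the long non-coding gene C230088H06Rik. Fold enrichment was 3.09 to 5.38 at the first and 2.56 to 5.13 at the second, against a median of 3.87 in the rest of the autosomes. Bases whose 50-mer occurs once made up 55.3% of the first region and 99.1% of the second, and repeat-masked bases 57.7% and 86.5%.

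**Figure D5:**
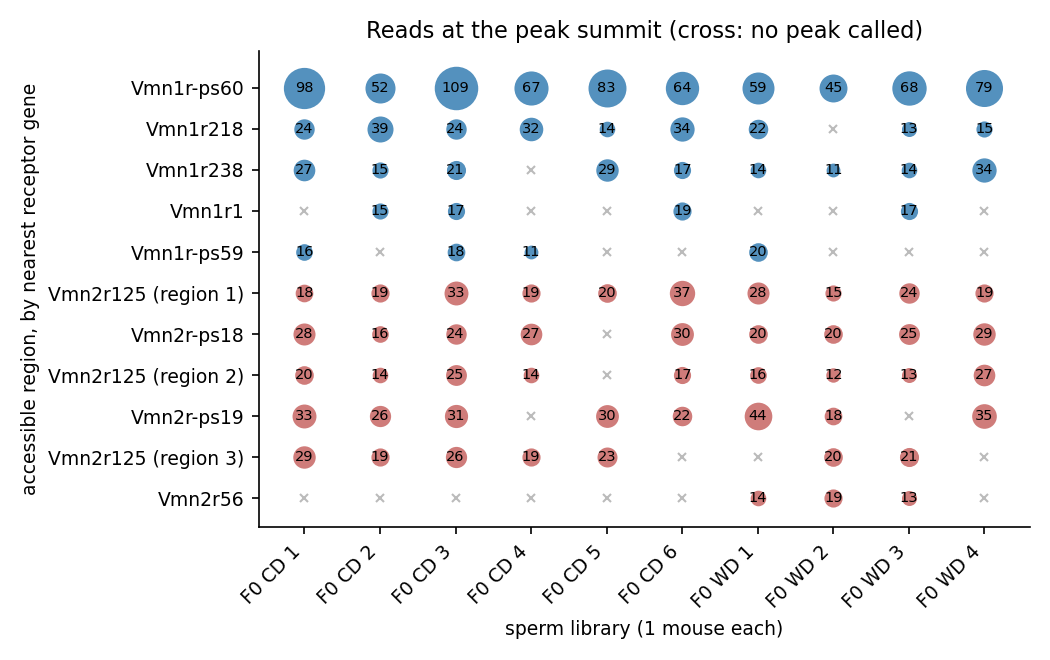
Reads at the strongest peak summit of the named regions in each library, with V1R regions in blue and V2R regions in red, circle area in proportion to the reads printed inside it and a cross where no peak was called. Regions 1, 2 and 3 of Vmn2r125 are those upstream, downstream and next upstream. The Vmn1r-ps60 region exceeds all others in every library, with 45 to 109 reads, and the Vmn2r56 region has peaks in 3 F0 WD libraries alone.

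Diet was compared at 2 levels, the density over each family and the detection of single regions. The V1R density ratio to the rest of the autosomes had a median of 0.348 in F0 CD and 0.349 in F0 WD, and the mean log2 ratios differed by 0.02 ± 0.167 (SE, F0 WD minus F0 CD, n = 6 and 4, exact two-sided permutation p = 0.905, adjusted p = 0.905 over the 2 families). The V2R medians were 0.271 and 0.322, and the difference was 0.19 ± 0.188 (SE, n = 6 and 4, exact two-sided permutation p = 0.305, adjusted p = 0.610). The diet groups overlapped in both families, and these differences were within the spread between mice.

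Detection could be compared at the 44 receptor regions found in at least 2 libraries. All others were called in 1 library each and were not tested. Peaks of both diets were found in 39 of the 44, peaks of F0 WD alone in 3 and peaks of F0 CD alone in 2, or 88.6%, 6.82% and 4.55%. Over all 24763 regions tested these shares were 72.9%, 5.26% and 21.8%, and the difference between them was left untested. Fisher's exact test, two-sided and at an unadjusted p under 0.05, called 1 receptor region more often detected in F0 WD, where 0.553% of all 24763 regions tested were called in that direction, and 0 were detected more often in F0 CD, where 0.468% were called. The lowest adjusted p was 1, by Benjamini-Hochberg over all regions tested, so no receptor region passed. The smallest p that Fisher's exact test allows with these group sizes is 0.00476. Over 24763 regions, a region at that p could pass only if very many others reached it too. The adjusted result therefore cannot decide whether detection at receptor regions differed by diet.

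The region called towards F0 WD lay 9551 bp upstream of the protein-coding gene Vmn2r56 (chr7:12744555-12744853). Its summit held 14, 19 and 13 reads in F0 WD 1, 2 and 3, and no peak was called in F0 WD 4 or in any of the 6 F0 CD libraries (Fisher's exact test, p = 0.0333, adjusted p = 1). These counts are close to the 9 to 13 reads of the weakest summits, and leaving out F0 WD 1, 2 or 3 ended the call. Its longest CA or TG run had 14 units.

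Genes that work beside the receptors in vomeronasal neurons were not as sparse. The list held 19 single genes, and 18 of them had at least 1 region within 10 kb, at 68.4 regions per Mb over 2.56 Mb. For 12 of the 19 at least 1 region was found in 2 or more libraries. Trpc2, the channel of the vomeronasal response, had 1 region, Gnai2 (Gαi2) had 2 and Gnao1 (Gαo) had 11, or 30.0, 48.5 and 61.3 per Mb. Kcnj6, a potassium channel subunit gated by G proteins, had 29 regions at 108 per Mb, of which 19 were in at least 2 libraries. None of the 19 had a region in 2 or more libraries within 1 kb of the 5′ end of the gene. By the wider measure of the marker check, within 1 kb of any annotated transcript start, Gnai2 and Gnao1 had peaks in 2 libraries each. Trpc2 and Omp had none there. Clustered families of the same system were lower. The 8 formyl peptide receptor genes (Fpr), some of which serve as vomeronasal receptors, held 22.8 regions per Mb, and the 15 Esp genes, which encode exocrine gland peptides detected by V2R neurons, held 10.8. The 10 genes of the H2-M10 group, MHC class I genes expressed with V2R, held 43.7 regions per Mb, and the 49 Mup genes, for major urinary proteins, held 34.7. These are densities of merged regions, given with no test.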

How the data were processed

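Sperm ATAC-seq libraries, 6 F0 CD and 4 F0 WD, were grouped by sample title. The submitters' notes and the methods state trimming with Trim Galore 0.6.10 and alignment with Bowtie2 2.4.5 to mm10 (GRCm38), with up to 20 alignments reported per read. The authors then removed duplicates with Picard 2.24.0 and alignments of quality under 5 with SAMtools, shifted reads for the transposase offset, kept short fragments and called peaks in each library with MACS2 2.2.7.1 at q 0.05. How these settings place reads among near-identical receptor genes was not tested.

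Each deposited peak carries an integer score that MACS2 derives from q, a fold enrichment that is a ratio to the local background, and p and q as −log10, all as the authors deposited them. Reads at a summit were solved from the fold and the p. The lists hold no read counts per region, so the count model of the authors could not be run, and the lowest called summits of 9 to 13 reads limit what a missing peak shows.

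Peaks were counted as distinct intervals. Densities were compared within a library and tested over libraries by exact sign-flip permutation, diets by exact permutation and by Fisher's exact test per region over the whole table, with Benjamini-Hochberg adjustment. Unique 50-mers were counted on both strands of the GRCm38 primary assembly, in the rest of the autosomes at every 500th base. The 4 receptor genes on X and Y (0 regions) and unplaced scaffolds were not used. Named regions were, in each family, the 5 found in the most libraries and those with a Fisher p under 0.05. Named genes were 5 per family with the most regions and those with a region in at least 3 libraries within 1 kb of the start. Ties, as in V1R, left genes of the same count unnamed. The members, gene lists and rules were chosen with earlier results of these data known, and the repeat words, the distance shells and the coding split without chromosome 4 were added after the values were seen. Alternatives were the flank, coding genes alone, the q threshold, each summit counted, lists of equal length, unique bases, the libraries required, mid-p, each library left out and the replicate block. Python 3.11.15, numpy 2.4.6, pandas 2.3.3, scipy 1.17.1, numba 0.67.0 and matplotlib 3.10.9 were used.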

Additional observations from a re-analysis of the deposited data

How the results depend on the processing

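Density ratios of both families to the rest of the autosomes kept their direction and call under all alternatives run. The V1R ratio to V2R lost its call with q under 0.01 (log2 0.13), equal lists (0.0320) and unique bases (0.18), and each library left out gave 0.16 to 0.26. The V1R ratio to olfactory receptors was -0.0755 with a 50-kb flank. Regions per Mb of V1R were 15.5 without a flank, 20.9 with 50 kb, 14.4 with q under 0.01, 26.7 per unique Mb and 15.2 in clusters alone, and 14.3 to 16.4 with a library left out. For V2R they were 11.2 without a flank, 18 with 50 kb, 11.7 at coding genes, 11.3 with q under 0.01, 20.3 per unique Mb, 9.62 in clusters alone and 10.5 without chromosome 4 or chromosomes 4 and 18, and 10.7 to 12.5 with a library left out. The recurrent V1R share was 11.5% without a flank and 7.96% with 3 libraries required. The V2R share was 7.27% without a flank, 11.4% at coding genes, 13.0% with 3 libraries, 8.22% in clusters alone and 10.8% without chromosome 4 or chromosomes 4 and 18. The V1R diet difference, never called, changed sign without a flank (-0.12), with 50 kb (-0.0295), at coding genes (-0.12) and in clusters alone (-0.15), and was -0.0718 to 0.13 with a library left out. The V2R diet difference was -0.0542 without chromosome 4, -0.0546 without chromosomes 4 and 18, and -0.0824 in clusters alone. With mid-p 1 receptor region was called towards F0 CD, and with a library left out 0 to 1 were called in either direction. The cause of these changes was not tested. Settings by chromosome and cluster were chosen once the values were known.

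The replicate numbers showed no pairing in the peak lists, where deviations of same-numbered libraries had correlations of -0.01 to 0.04. These values cannot show whether such libraries were handled together. With the replicate block over 4 pairs, where the smallest possible p is 0.125, the V1R diet difference was -0.12.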
